A study of Mus musculus with 9 samples.

Results

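The genes described here are 9 lymphoid and B-lineage genes, Dntt, Rag1, Ptcra, Ly6d, Cd79a, Cd79b, Ighm, Blnk and Pax5, taken by symbol from the 39179 genes listed in the count table. They were measured by bulk RNA-seq in splenic dendritic cells (DCs) of unstimulated C57BL/6J mice at steady state, sorted into CD8+ cDC1, CD8- cDC2 and plasmacytoid DC (pDC), with 3 libraries per subset. Each library came from a pool of 15 to 17 mice, the mice were 6 to 12 weeks old by the study's methods, and their sex was not given in the sources used here. Light-density spleen cells were depleted with antibodies to markers of other lineages, among them CD3, Thy-1, Ly6G and TER-119, and were then sorted as cDC1 (CD11c high, CD317 low, CD8+, CD11b-), cDC2 (CD11c high, CD317 low, CD8-, CD11b+) or pDC (CD11c intermediate, CD317 high, CD11b-). The 3 subsets carried no transgene or allele and received no agent, so the comparisons below are between cell subsets of 1 strain.

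B and T cells build their antigen receptors by V(D)J recombination, in which the RAG1 and RAG2 proteins cut the receptor loci and terminal deoxynucleotidyl transferase, encoded by Dntt, adds bases at the joins without a template. A rearranged chain is then tested in a pre-receptor, with the pre-T alpha chain (Ptcra) in T cell precursors and the surrogate light chains in B cell precursors, before a mature receptor such as surface IgM, which signals through CD79A and CD79B to the adaptor BLNK. pDC secrete type I interferon and arise in part from progenitors that bear lymphoid genes such as Ly6d, and they depend on E2-2 (Tcf4), a basic helix-loop-helix factor that binds E-box sequences.

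The promoters are shown first because several of these genes moved together between the subsets. RefSeq held a promoter for 6 of the 9 genes, and the 250 bases before the RefSeq start (GRCm38.p6) were searched on both strands for the E-box letters CAGNTG, for TCCCNNGGG, a form of the EBF1 motif, and for the octamer ATGCAAAT bound by POU2F factors. Over 32851 promoters of the same length, 44.8% held CAGNTG, 5.6% held TCCCNNGGG and 1.6% held ATGCAAAT. Capitals mark the matches in the sequences below, which are written 5' to 3' on the strand of the gene and leave out annotated exons.
Dntt, chr19:41029025-41029274, plus strand: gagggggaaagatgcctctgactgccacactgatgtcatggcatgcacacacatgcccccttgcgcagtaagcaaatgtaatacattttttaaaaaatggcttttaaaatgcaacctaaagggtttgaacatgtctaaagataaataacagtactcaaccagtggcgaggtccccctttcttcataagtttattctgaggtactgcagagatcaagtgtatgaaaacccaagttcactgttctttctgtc
Rag1, chr2:101649533-101649782, minus strand: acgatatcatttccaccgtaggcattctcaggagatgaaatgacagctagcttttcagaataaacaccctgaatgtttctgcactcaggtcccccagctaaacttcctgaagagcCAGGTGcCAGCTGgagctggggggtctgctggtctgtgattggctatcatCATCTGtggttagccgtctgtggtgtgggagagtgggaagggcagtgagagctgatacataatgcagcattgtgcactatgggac
Ptcra, chr17:46763713-46763962, minus strand: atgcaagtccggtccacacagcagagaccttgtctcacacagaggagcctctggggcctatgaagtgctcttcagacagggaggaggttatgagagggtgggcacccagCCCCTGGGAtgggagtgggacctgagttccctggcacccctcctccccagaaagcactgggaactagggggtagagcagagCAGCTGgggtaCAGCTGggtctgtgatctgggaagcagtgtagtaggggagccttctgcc
Cd79a, chr7:24897247-24897380, plus strand: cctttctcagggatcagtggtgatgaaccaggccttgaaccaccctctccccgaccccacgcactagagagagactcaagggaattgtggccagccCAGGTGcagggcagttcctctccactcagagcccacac
The Rag1 stretch held 3 E-boxes, at 135, 128 and 85 bases before the start. The Ptcra stretch held 2 E-boxes, 60 and 49 bases before the start, and a TCCCNNGGG match on the reverse strand at 141 bases. The part of the Cd79a stretch outside annotated exons, 134 bases long, held 1 E-box, 154 bases before the start. Blnk had 2 E-boxes and 1 octamer in its window, all of which lay in annotated exon and are not shown. The Dntt and Pax5 windows held none of the 3 letter patterns, so the members that were higher in pDC did not share a pattern in these windows.

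The libraries held between 15806597 and 32453789 assigned reads, and the third replicate was the shallowest in every subset. The subsets carried the markers of their labels. Siglech, a pDC lectin, averaged 4749 CPM (counts per 1000000 reads, scaled by TMM factors throughout) in pDC against 27.1 in cDC1 and 17.0 in cDC2. Xcr1, a chemokine receptor of cDC1, averaged 936 CPM in cDC1 against 49.6 in cDC2 and 4.64 in pDC, and Itgam, which encodes CD11b, averaged 235 CPM in cDC2 against 11.6 and 11.3 in the other subsets. Of the defining T cell genes, Cd3d, Cd3e, Cd3g and Bcl11b, none averaged above 1.84 CPM in any subset. In bulk libraries a smaller number of cells carrying a transcript and less of it per cell cannot be told apart, and this holds for every level given below.

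Of the 9 genes, 7 passed the filter on low counts. Differences were fitted by edgeR's quasi-likelihood method, and p-values were adjusted after Benjamini and Hochberg over all 13819 genes tested. Ptcra and Pax5 did not pass. Rag1 and Cd79a passed through their pDC counts alone, so the counts and medians over the 7 genes are a description. In pDC against cDC1, 7 of the 7 tested genes were called at an adjusted p under 0.05, and all were higher in pDC. Among all genes tested in that comparison, 48.6% were called, 24.3% as higher in pDC and 24.4% as lower. In pDC against cDC2, 6 of the 7 were called, again all higher in pDC, with Cd79a as the exception, while 45.8% of all genes tested were called, 22.5% as higher and 23.3% as lower. In cDC2 against cDC1, 1 of the 7 was called, Cd79b, which was higher in cDC2, while 24.4% of all genes tested were called, 12.7% as higher in cDC2 (1760 genes) and 11.7% as lower (1610 genes). Scaled by library size alone, that last split became 2204 higher and 1287 lower. The 5 genes that would pass the filter without the pDC libraries, Dntt, Ly6d, Ighm, Cd79b and Blnk, were called as higher in pDC in both comparisons. The 2 comparisons with pDC use the same 3 pDC libraries, so they are not independent of each other.

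The median log2 fold change of the 7 tested genes was 6.23 in pDC against cDC1 and 6.36 in pDC against cDC2, beside medians of 0.02 and -0.01 over all genes tested. With Rag1, which had 3 counts (the floor used here) or fewer in each conventional library, set to its lower bound, these medians were 4.07 and 4.35. In cDC2 against cDC1 the median was 0.58, or 0.07 with Rag1 at its bound, beside 0.03 over all genes. The genes fell into groups by their level. Ly6d, Dntt and Blnk were 74.3- to 493-fold higher in pDC than in either conventional subset by mean CPM, Ighm and Cd79b were already present in the conventional subsets, and Rag1, Ptcra, Cd79a and Pax5 stayed under 5 CPM in every library.

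**Figure D1:**
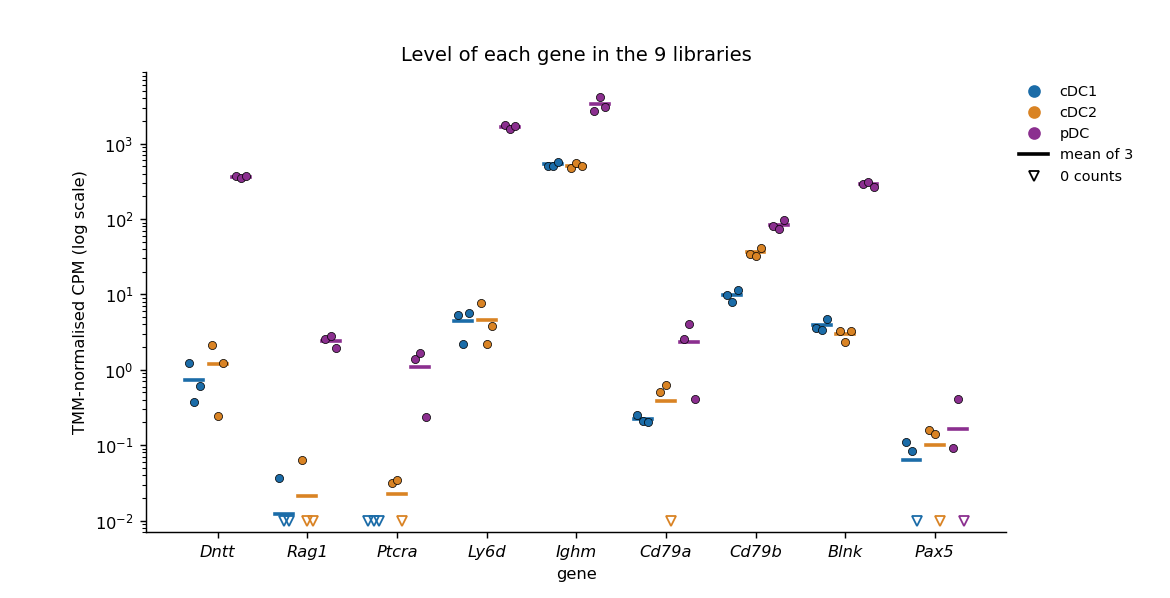
Level of each of the 9 genes in each library, as TMM-normalised CPM on a log scale, with a line at the mean of the 3 libraries of a subset and open triangles for libraries with 0 counts. The pDC points lie above all cDC1 and cDC2 points for Dntt, Rag1, Ptcra, Ly6d, Ighm, Cd79b and Blnk, while the pDC points of Cd79a and Pax5 overlap those of cDC2.

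Dntt lies on chr19:41029275-41059525 (GRCm38, plus strand). Its transcript stood at 1.24, 0.375 and 0.609 CPM in cDC1 replicates 1, 2 and 3, at 2.10, 0.245 and 1.22 CPM in cDC2, and at 369.9, 351 and 375 CPM in pDC. The pDC libraries lay within a narrow band, with a coefficient of variation of 3.46%, and did not overlap the conventional libraries, the highest of which was the first of cDC2. The mean was 365 ± 12.6 CPM (SD, n = 3) in pDC. By edgeR's quasi-likelihood test the log2 fold change was 8.88 ± 0.60 (SE) against cDC1, with an adjusted p of 1.81e-06, and 8.24 ± 0.58 against cDC2, with an adjusted p of 2.32e-06. The size of these differences moved with single conventional libraries. Without cDC1 replicate 1 the log2 fold change against cDC1 was 9.58, and without cDC2 replicate 1 that against cDC2 was 9.09. Within a replicate number the ratio of pDC to cDC1 ran from 299 to 936, and the ratio of pDC to cDC2 from 176 to 1433. Only 23 of the 13819 genes tested had a larger positive log2 fold change against cDC1, and 41 had a larger one against cDC2. In cDC2 against cDC1 the fitted difference was 0.64 ± 0.63, with an adjusted p of 0.535, and the ranges of the 2 subsets overlapped.

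Rag1 (chr2:101638282-101649501, minus strand) was measured at far lower counts. The raw counts were 1, 0 and 0 in cDC1, 2, 0 and 0 in cDC2 and 84, 56 and 33 in pDC. All 6 conventional libraries thus held no more than the floor of 3 counts, and all 3 pDC libraries were above it. At 2.44 ± 0.455 CPM (SD, n = 3), the pDC mean was at least 16.7-fold higher than in cDC1 and at least 20.3-fold higher than in cDC2, both taken against 3 counts per library. The gene passed the filter on low counts through pDC alone and had to differ there, so no p is given for it. A stretch of 80 exon bases of Rag1 overlaps another listed gene on the same strand, B230118H07Rik, which takes in 0.122% of the 75-base windows of the Rag1 exons.

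The partner of RAG1 was close to absent at this depth. Rag2, which is needed with RAG1 for cutting, had 0 counts in all 6 conventional libraries and 1, 5 and 0 counts in pDC, so only 1 library lay above the floor, and it was not tested. Of 13 genes of the rearrangement machinery looked up, Rag2 included, 12 were listed and 11 tested. In pDC against cDC1, 4 were higher, 2 were lower and 5 did not pass the test, with a median log2 fold change of 0.40. In pDC against cDC2, 4 were higher, 3 lower and 4 did not pass, with a median of -0.01. Among all genes tested, 24.3% were higher and 24.4% lower against cDC1, and 22.5% higher and 23.3% lower against cDC2.

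Among them, Dclre1c, which encodes the Artemis nuclease that opens the hairpin ends, was higher in pDC by 2.26 on the log2 scale against cDC1 and by 1.63 against cDC2 (adjusted p 0.000111 and 0.000873 in edgeR's quasi-likelihood test). Xrcc6, the Ku70 subunit of the end-binding complex, was higher by 1.10 and 0.94. Hmgb1, a DNA-bending cofactor of the RAG complex, was higher by 0.95 and 0.58. Prkdc, the catalytic subunit of DNA-dependent protein kinase, was higher by 0.71 against cDC1 and did not pass the test against cDC2 (adjusted p = 0.995 by edgeR's quasi-likelihood test). Polm, a polymerase related to Dntt, was higher by 1.35 against cDC2, and its 0.47 against cDC1 did not pass the test. Poll, another polymerase of the same family, was lower in pDC, with a log2 fold change of -4.82 in both comparisons. Hmgb2, the paralogue of Hmgb1, was lower by log2 fold changes of -2.34 and -2.42, and Xrcc5, the Ku80 subunit, by -1.73 against cDC2. The list therefore did not move as a block with Dntt and Rag1.

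Ptcra (chr17:46755663-46763712, minus strand) had counts of 0, 0 and 0 in cDC1, 1, 1 and 0 in cDC2 and 46, 33 and 4 in pDC. Every pDC library was above the floor of 3 counts and every conventional library was under it, but the third pDC library passed the floor by 1 count, and the highest pDC level was 7.10 times the lowest. The pDC mean of 1.10 ± 0.761 CPM (SD, n = 3) was at least 7.54-fold higher than in cDC1 and at least 9.16-fold higher than in cDC2. Ptcra was not tested under the main filter. When genes of any count were kept, so that 21082 genes were tested, edgeR's quasi-likelihood test called it as higher in pDC in both comparisons, with adjusted p-values of 0.00257 and 0.00731.

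Ly6d (chr15:74762056-74763620, minus strand) encodes a small surface protein that marks lymphoid progenitors committed towards the B lineage and was the most abundant of the 9 per kilobase in pDC. It stood at 5.39, 2.17 and 5.62 CPM in cDC1, at 7.65, 2.17 and 3.77 CPM in cDC2 and at 1772, 1545 and 1725 CPM in pDC. Only 50 of the 39179 genes listed had a higher mean CPM in pDC. The log2 fold change was 8.59 ± 0.55 (SE) against cDC1 and 8.52 ± 0.54 against cDC2, with adjusted p-values of 1.21e-06 and 1.27e-06 by edgeR's quasi-likelihood test. Without cDC2 replicate 1 the latter was 9.17. cDC2 and cDC1 overlapped and differed by 0.07 ± 0.44 on the log2 scale (adjusted p = 0.937 by the same edgeR test).

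Of 15 other pre-receptor and lymphoid progenitor genes, 10 were tested. In pDC against cDC1, 4 were higher, 5 lower and 1 did not pass, with a median log2 fold change of -0.25. Of the 4 higher genes, Vpreb1 passed the filter on low counts through pDC alone. In pDC against cDC2, 3 were higher, 4 lower and 3 did not pass, with a median of 0.14. The shares over all genes tested were 24.3% higher and 24.4% lower against cDC1, and 22.5% higher and 23.3% lower against cDC2. Those that were higher in both comparisons included receptors of early lymphoid cells. Il7r, the receptor for the lymphoid growth factor IL-7, stood between 222 and 249 CPM in the 3 pDC libraries and at 16.6 CPM or less elsewhere, with log2 fold changes of 5.29 and 4.06 (adjusted p 3.35e-08 and 9.70e-08 in edgeR's quasi-likelihood test). Notch1, the receptor that directs T cell fate, stood between 199 and 281 CPM in pDC and at 13.3 CPM or less elsewhere, with log2 fold changes of 4.43 and 4.82. Cd93, a marker of early B cells, was higher by 3.96 and 0.90.

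Other genes of that list were lower in pDC. Hes1, a Notch target, had log2 fold changes of -4.35 and -5.07, and Dtx1, another gene induced by Notch, of -1.98 and -7.33. Kit, the stem cell factor receptor, had -3.57 and -4.11, and Tcf7, a factor of early T cells, had -2.54 and -5.15. The surrogate light chain genes were near the floor. Igll1 had 0 counts in all 6 conventional libraries and 12, 2 and 2 counts in pDC. Vpreb1 had 3, 2 and 6 counts in cDC1, 13, 8 and 0 in cDC2 and 22, 19 and 42 in pDC. Its fitted log2 fold change was 2.84 against cDC1, which was called, and 2.45 against cDC2, which was not. It passed the filter through pDC alone, so these calls are a description and no p is given for it.

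Ighm (chr12:113418558-113422730, minus strand), the constant region of the IgM heavy chain, had the highest level of the 9 in both conventional subsets. It stood at 512, 508 and 578 CPM in cDC1, at 478, 550.4 and 503 CPM in cDC2 and at 2722, 4161 and 3049 CPM in pDC. The conventional subsets overlapped, and all 3 pDC libraries lay above them. The log2 fold change was 2.64 ± 0.16 (SE) against cDC1 and 2.70 ± 0.16 against cDC2, with adjusted p-values of 8.45e-07 and 7.08e-07 by edgeR's quasi-likelihood test. cDC2 against cDC1 gave -0.06 ± 0.15 (adjusted p = 0.824 by the same edgeR test), and its sign turned to 0.05 when libraries were scaled by size alone.

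The chains that carry the signal of IgM in B cells differed from each other in level. Cd79b (chr11:106311341-106314762, minus strand) stood at 9.76, 7.96 and 11.4 CPM in cDC1, at 34.7, 32.4 and 41.1 CPM in cDC2 and at 81.2, 73.3 and 97.7 CPM in pDC. The 3 subsets did not overlap and formed 3 steps. pDC exceeded cDC1 by 3.12 ± 0.18 and cDC2 by 1.22 ± 0.17 on the log2 scale, and cDC2 exceeded cDC1 by 1.90 ± 0.17, with adjusted p-values of 6.53e-07, 0.000208 and 4.48e-05 by edgeR's quasi-likelihood test. Within each replicate number the ratio of pDC to cDC1 was between 8.32 and 9.21, and the ratio of pDC to cDC2 was between 2.26 and 2.38.

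Cd79a (chr7:24897381-24902197, plus strand), which encodes the partner chain that CD79B needs to reach the surface, stood at 0.255, 0.208 and 0.203 CPM in cDC1, at 0.510, 0.630 and 0 CPM in cDC2 and at 2.54, 4.10 and 0.412 CPM in pDC. The third pDC library, with 7 counts, lay below the first and second cDC2 libraries, and the highest pDC level was 9.95 times the lowest. The gene passed the filter on low counts through pDC alone, so its calls are a description and no p is given for it. edgeR's fitted log2 fold change was 3.37 ± 1.09 (SE) against cDC1, which was called, and 2.57 ± 1.02 against cDC2, which was not. Against cDC2 it was called with the replicate number as a block (2.63), by DESeq2 (2.60) and without pDC replicate 3 (3.03). Against cDC1 the call was lost with limma-voom and without any 1 of the cDC1 libraries or of pDC replicates 1 and 2. The log2 fold change against cDC1 was 2.70 without pDC replicate 2. In addition, 4.48% of the 75-base windows of its exons occur in another gene, so part of its few reads could have been lost or shared in counting.

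Blnk (chr19:40928927-40994535, minus strand), the adaptor that links the B cell receptor kinase SYK to its targets, stood at 3.57, 3.33 and 4.74 CPM in cDC1, at 3.25, 2.34 and 3.29 CPM in cDC2 and at 289, 311 and 264 CPM in pDC. The pDC libraries agreed within a coefficient of variation of 8.22% and lay far above the conventional ones, which overlapped each other. The log2 fold change was 6.23 ± 0.20 (SE) against cDC1 and 6.61 ± 0.20 against cDC2, with adjusted p-values of 3.35e-08 and 5.08e-08 by edgeR's quasi-likelihood test. cDC2 against cDC1 gave -0.38 ± 0.18 (adjusted p = 0.172 by the same edgeR test). Blnk and Dntt are neighbours on chromosome 19. Their near ends lie 34740 bases apart with 0 annotated genes between them, and they are read away from each other.

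Pax5 (chr4:44524757-44710487, minus strand), the factor that fixes B cell identity and that drives Cd79a and Blnk in B cells, had 3, 2 and 0 counts in cDC1, 5, 4 and 0 in cDC2 and 3, 8 and 0 in pDC. The 3 subsets overlapped, only 3 of the 9 libraries rose above the floor of 3 counts, and a difference between subsets was not detectable at this depth. With genes of any count kept, the log2 fold change was 1.19 ± 1.44 (SE) against cDC1 and 0.64 ± 1.38 against cDC2, with adjusted p-values of 0.583 and 0.788 by edgeR's quasi-likelihood test. Exons of antisense genes overlap 8.6% of its exon bases, and whether counting used strand was not given in the sources used here.

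**Figure D2:**
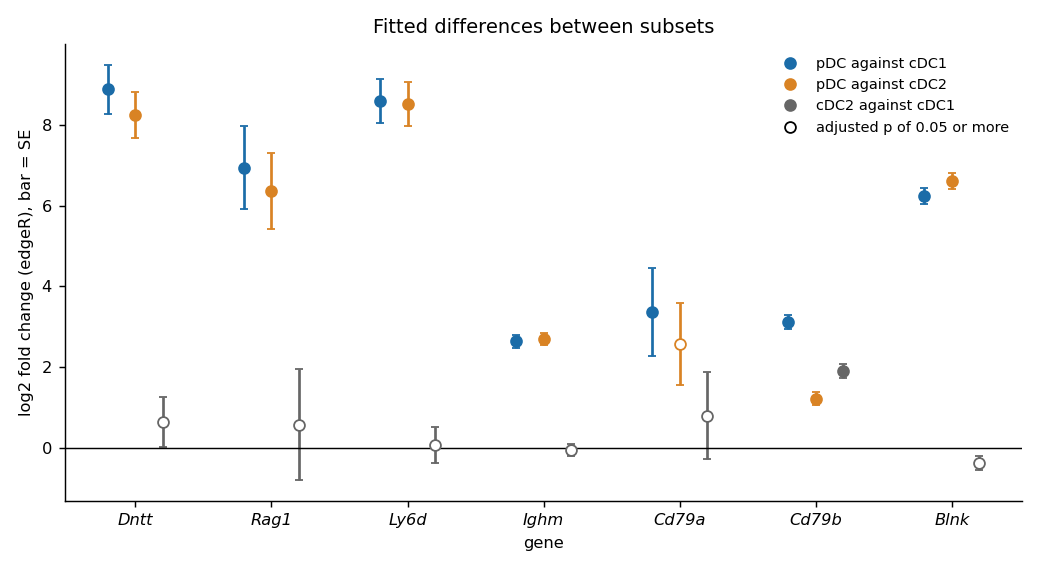
Fitted log2 fold change with its standard error for the 7 tested genes in the 3 comparisons, from the edgeR quasi-likelihood fit over all genes, with open circles where the adjusted p was 0.05 or more. Dntt and Ly6d sit above 8 in both pDC comparisons, Ighm and Cd79b below 4, and Cd79b alone is filled in cDC2 against cDC1. Rag1 and Cd79a passed the filter on low counts through pDC alone, so their fill is a description. The fitted values of Rag1 stand against counts at or under the floor. Its lower bounds by mean CPM, at least 16.7-fold over cDC1 and 20.3-fold over cDC2, are not drawn.

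Per kilobase of annotated exon, the order of the genes differed between the subsets. In pDC the mean levels in CPM per kilobase were 2259 for Ly6d, 1755 for Ighm, 159 for Dntt, 58.8 for Cd79b, 48.1 for Blnk, 1.61 for Cd79a, 0.857 for Ptcra, 0.369 for Rag1 and 0.0187 for Pax5. The ranges over libraries of the neighbours Ly6d and Ighm overlapped, as did those of Cd79b and Blnk, of Cd79a and Ptcra and of Ptcra and Rag1, and the other steps were larger than the spread. In cDC1, Ighm came first at 282 CPM per kilobase, followed by Cd79b at 6.78 and Ly6d at 5.90, which overlapped, and by Blnk at 0.648. In cDC2 the order was Ighm at 271, Cd79b at 25.2 and Ly6d at 6.09 CPM per kilobase, with no overlap among these 3. Genes outside the 9 whose profile over the 9 libraries was nearest, by the root mean square difference of centred log2(CPM + 1), were Cox6a2 for Dntt (0.228), Klk1 for Ly6d (0.301), Slco4a1 for Blnk (0.191), Tom1 for Rag1 (0.0824), Adra1b for Ighm (0.153), Ighv14-2 for Cd79a (0.208) and Ctsd for Cd79b (0.168). Dntt itself was the second nearest gene to Ly6d, at 0.431. Because 1 CPM was added, this measure understates the changes of genes under about 1 CPM. This touches Rag1, Cd79a and their matches, and in cDC1 also Dntt (0.741 CPM) and its match Cox6a2 (0.913 CPM). It touches the match of Blnk, since Slco4a1 averaged 0.691 CPM in cDC1 and 0.463 CPM in cDC2. The match of Ighm is touched too, since Adra1b averaged 0.0139 CPM in cDC1, 0.0435 CPM in cDC2 and 4.97 CPM in pDC.

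The B cell receptor signalling genes downstream of these chains were mixed. Of 16 genes, 15 were tested. In pDC against cDC1, 7 were higher, 4 lower and 4 did not pass, with a median log2 fold change of 0.24. Over all genes tested 24.3% were higher and 24.4% lower. In pDC against cDC2, 5 were higher, 6 lower and 4 did not pass, with a median of -0.27, beside 22.5% higher and 23.3% lower among all genes. Cd72, a co-receptor that restrains B cell receptor signals, was higher in pDC by 4.79 and 0.97 on the log2 scale. Syk, the kinase that phosphorylates BLNK, was higher by 1.92 and 0.61, and Pik3ap1, the adaptor BCAP, by 1.59 and 1.32. Blk, a Src family kinase of B cells, was higher than in cDC1 by 3.47 and lower than in cDC2, with a log2 fold change of -1.40.

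The co-receptor Cr2 showed the same pattern as Blk, at 2.36 against cDC1 and -2.30 against cDC2. Vav1, an exchange factor downstream of SYK, was higher than in cDC2 by 0.65. Cd22, an inhibitory lectin of B cells, and Bank1, a B cell scaffold, were lower in pDC in both comparisons, with log2 fold changes of -4.41 against cDC2 for Cd22 and of -2.50 and -3.84 for Bank1. Inpp5d, the phosphatase SHIP1, and Btk, a Tec family kinase, were lower than in cDC1, at -0.84 and -0.66.

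Of 17 transcription factors of B cell fate other than Pax5, 16 were tested. In pDC against cDC1, 12 were higher, 1 lower and 3 did not pass, with a median log2 fold change of 1.67, beside 24.3% higher among all genes tested. In pDC against cDC2, 9 were higher, 2 lower and 5 did not pass, with a median of 1.21, beside 22.5% higher among all genes. The pDC marker list also holds 2 of these genes, Spib and Tcf4. Tcf4 stood between 860.1 and 979.8 CPM in pDC and at 52.0 CPM or less elsewhere, with log2 fold changes of 4.67 and 4.29. Spib, an ETS factor of pDC and B cells, was higher by 5.20 and 3.24, Id3, an inhibitor of E proteins, by 4.65 and 3.56, and Ikzf3, the lymphoid factor Aiolos, by 3.49 and 1.35. Irf8 was higher than in cDC2 by 3.98.

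Id2, an inhibitor of E proteins that conventional DCs need, was lower in pDC, with log2 fold changes of -5.86 and -4.66, and Pou2f2 was lower than in cDC2, at -0.96. Ebf1, which acts with Pax5 to set the B cell programme, had at most 9 counts in any library and was not tested.

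**Figure D3:**
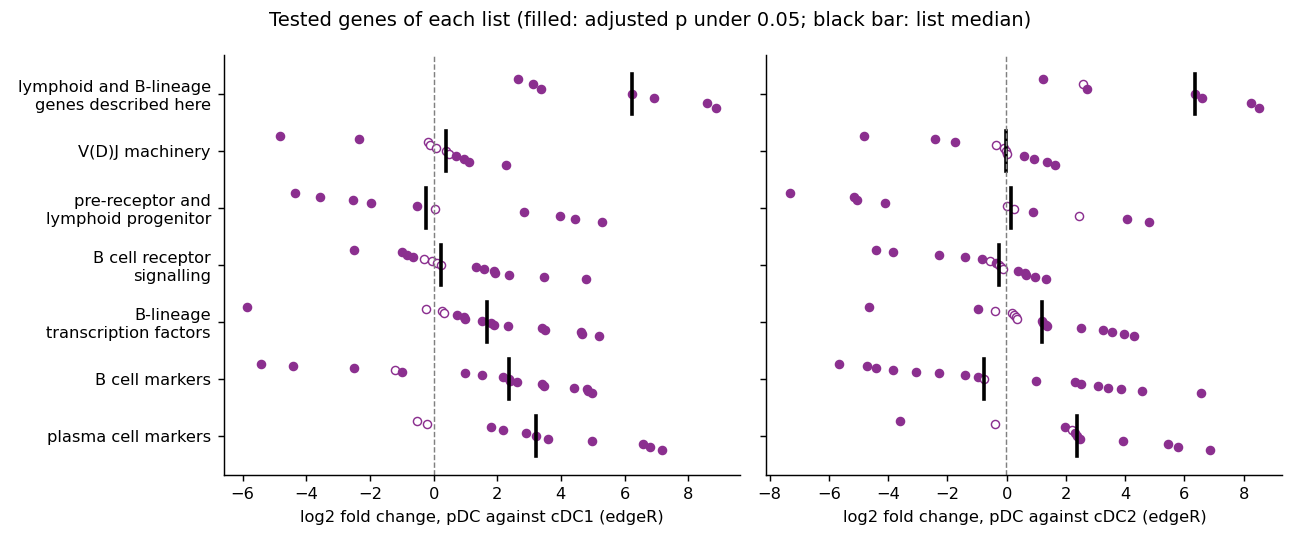
Log2 fold change of every tested gene in the 9-gene group and in 6 related lists, for pDC against cDC1 on the left and against cDC2 on the right, with filled points for an adjusted p under 0.05, a black bar at the list median and a dashed line at the median of all genes tested. The black bar of the 9-gene group, over its 7 tested genes, lies above 6 in both panels, while those of the rearrangement, pre-receptor and receptor signalling lists lie within 0.5 of 0. With Rag1 set to its lower bound, the medians of the 7 genes were 4.07 and 4.35, which are not drawn. Rag1, Cd79a, Vpreb1 and 1 B cell marker passed the filter on low counts through pDC alone, so their fill is a description.

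RNA of B cells and plasma cells was read beside these genes from marker lists that leave the 9 genes out. Of 20 listed B cell markers 17 were tested, of which 1 passed the filter through pDC alone. In pDC against cDC1, 12 were higher, 4 lower and 1 did not pass, beside 24.3% higher and 24.4% lower among all genes tested. Against cDC2, 8 were higher, 8 lower and 1 did not pass, beside 22.5% higher and 23.3% lower among all genes. Their summed level was 276 to 303 CPM in cDC1, 485 to 597 CPM in cDC2 and 1663 to 2297 CPM in pDC. The defining markers did not move together. Ms4a1, which encodes CD20, was lower in pDC, at 0.847, 1.06 and 1.47 CPM against a mean of 47.6 CPM in cDC1 and 29.2 CPM in cDC2, with log2 fold changes of -5.44 and -4.73.

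Ebf1 was at 0.456 CPM or less in all libraries and at 0 in the third library of each subset. Cr2 averaged 1.47 CPM and Fcer2a 1.73 CPM in pDC, above cDC1 and below cDC2, where they averaged 7.09 and 2.91 CPM. Fcer2a passed the test against cDC1 and not against cDC2. The kappa light chain constant gene Igkc went the other way, at 952, 1522 and 814 CPM in pDC against means of 38.5 CPM in cDC1 and 75.3 CPM in cDC2, with log2 fold changes of 4.83 and 3.86 (adjusted p 1.80e-06 and 6.16e-06 by edgeR's quasi-likelihood test).

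Of 12 listed plasma cell markers 11 were tested. In pDC against cDC1, 9 were higher and 2 did not pass, where 24.3% of all genes tested were higher. Against cDC2, 8 were higher, 1 lower and 2 did not pass, where 22.5% of all genes were higher and 23.3% lower. Their summed level was 49.0 to 80.7 CPM in cDC1, 124 to 168 CPM in cDC2 and 1401 to 2419 CPM in pDC. Igha, the IgA constant region, stood at 729, 1579 and 610.3 CPM in pDC, and Igj, the joining chain of IgM and IgA, at 215, 454 and 345 CPM, against subset means of at most 22.1 CPM for either in the conventional subsets. Sdc1, which encodes CD138, stood at 49.5, 47.6 and 44.1 CPM in pDC and at 1.97 CPM or less elsewhere. Tnfrsf17, which encodes BCMA, had 17, 23 and 0 counts in pDC and at most 5 counts in any other library. Prdm1, the factor of plasma cell differentiation, averaged 0.513 CPM in pDC, 0.750 CPM in cDC1 and 6.49 CPM in cDC2.

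The part of B cell or plasma cell RNA in the levels of Ighm and Cd79a in pDC was not tested. The third pDC library held 0 counts of Ebf1, Pax5 and Tnfrsf17, which were also at 0 in the third cDC1 and cDC2 libraries. Its Igkc (814 CPM), Igha (610.3 CPM), Igj (345 CPM) and Sdc1 (44.1 CPM) were above every conventional library. Among the pDC libraries, its Igkc, Igha and Sdc1 were the lowest. Its Pou2af1, at 11.2 CPM, was the highest of all libraries. In that library Dntt stood at 375 CPM, Ly6d at 1725 CPM, Blnk at 264 CPM, Cd79b at 97.7 CPM and Ighm at 3049 CPM, each above every conventional library. Within that replicate number the ratio of pDC to cDC1 was 616 for Dntt, 307 for Ly6d, 55.7 for Blnk, 8.6 for Cd79b and 5.27 for Ighm. Among the pDC libraries, Rag1, Ptcra, Cd79a, Blnk and Pax5 were lowest in that library, and Dntt and Cd79b were highest. The pDC library with the most Ighm, the second, was also the one with the most Igkc, Igha and Igj. Rag1, Ptcra, Cd79a, Blnk and Pax5 were highest in that second library as well. Relative to Ms4a1, Cd79b reads numbered 0.160 to 0.258 per Ms4a1 read in cDC1, 1.21 to 1.28 in cDC2 and 66.4 to 95.9 in pDC. Per Igkc read, Dntt reads numbered 0.231 to 0.461 in pDC and at most 0.0273 elsewhere. Ly6d reads numbered 1.02 to 2.12 in pDC and at most 0.173 elsewhere, and Blnk reads 0.204 to 0.324 and at most 0.146. Per Igha read, the pDC values of Blnk overlapped the conventional ones. The low-count genes Rag1, Ptcra, Cd79a and Pax5 are left out of these ratios. For Cd79b and Ighm, in contrast, the ratios to Igkc and Igha were lowest in pDC. There were 0.197 to 0.351 Cd79b reads per Igkc read in cDC1, 0.339 to 0.772 in cDC2 and 0.0482 to 0.120 in pDC, and 0.770 to 1.24 per Igha read in cDC1, 1.47 to 4.16 in cDC2 and 0.0464 to 0.160 in pDC.

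**Figure D4:**
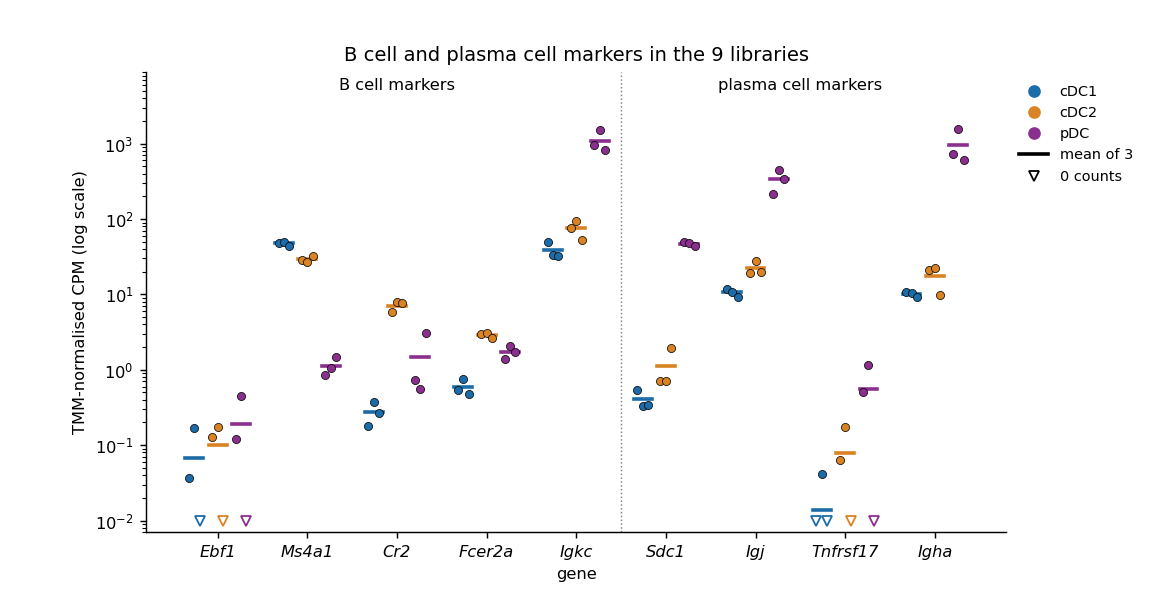
B cell markers (left of the dotted line) and plasma cell markers (right) in each library, as TMM-normalised CPM on a log scale, with lines at subset means and open triangles at 0 counts. In pDC, Ebf1 stays under 0.5 CPM and Ms4a1 lies below both conventional subsets, whereas Igkc, Sdc1, Igj and Igha lie above them.

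The heavy chain constant genes were divided differently in the subsets. Ighm made up 91.3 to 96.8% of all heavy chain constant reads (Ighm, Igha, Ighe and the Ighg genes, a grouping chosen after the values were seen) in cDC1, 85.8 to 95.0% in cDC2 and 70.4 to 80.6% in pDC, where Igha took 16.1 to 26.7%. There were 10.3 to 17.8 Ighm reads per Igkc read in cDC1, 5.76 to 9.44 in cDC2 and 2.73 to 3.75 in pDC, so the ranges of the 3 subsets did not overlap.

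Immunoglobulin V segments, which give reads when a rearranged receptor or an unrearranged V gene is transcribed, followed Igkc. Of 221 listed V genes, 39 to 72 had over 3 counts in the cDC1 libraries, 52 to 128 in cDC2 and 125 to 163 in pDC. Their summed level was 56.8, 44.5 and 36.2 CPM in cDC1, 91.6, 112 and 63.6 CPM in cDC2 and 1013, 2002 and 979 CPM in pDC. The pDC sums were all above the conventional ones, but the counts of V genes in pDC overlapped those in cDC2. Of the 126 V genes tested, 76 passed the filter on low counts through pDC alone. Of the 50 that would pass without pDC, edgeR called 46 as higher in pDC than in cDC1 and 41 as higher than in cDC2, beside 22.5% and 20.9% of the 13165 genes that would pass in the same way. Their median log2 fold changes were 4.71 and 3.83.

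No single V gene held most of the reads. The most abundant in each pDC library was Iglv1, with 10.7, 10.5 and 18.3% of the V reads, and the leading heavy chain V gene was a different one in each of the 3 pDC libraries. V genes have near-identical copies, and reads could have been split among them in counting. Igkv9-124 had 228, 52 and 125 counts in pDC and 0 in all cDC1 libraries, which makes it at least 38.6-fold higher in pDC. Igkv1-122, Ighv2-6 and Ighv1-77, also at 0 in all cDC1 libraries, were at least 24.3-, 20.9- and 16.6-fold higher. These 4 had the largest fitted differences from cDC1, but fitted values against 0 counts are no bound, so they are not shown to be the furthest above cDC1. The share of these reads that came from other cells was not tested.

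**Figure D5:**
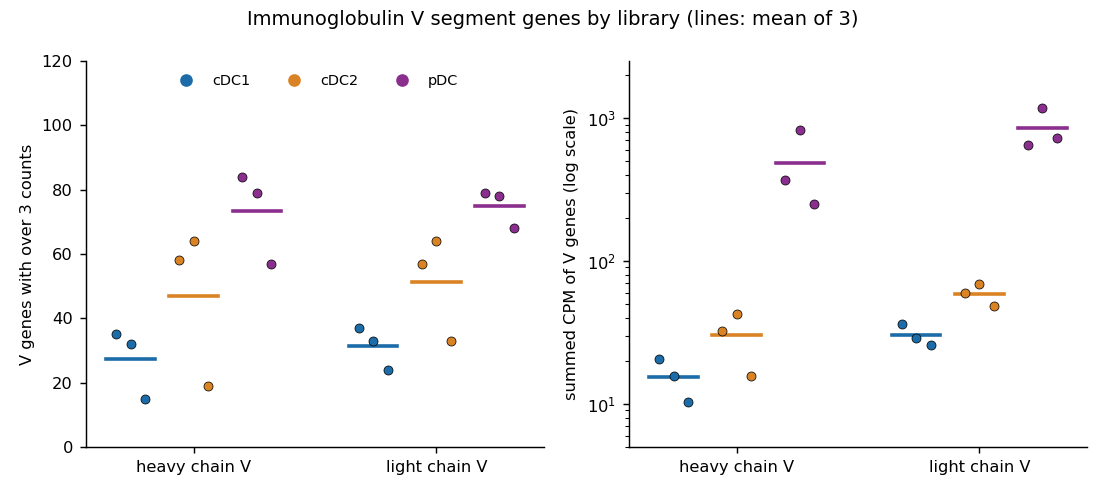
Number of heavy and light chain V genes with over 3 counts (left) and their summed CPM on a log scale (right) in each library, with lines at subset means. The summed level in pDC lies above every conventional library for both chains, at 252 to 821 CPM for heavy and 644 to 1182 CPM for light chain V genes.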

How the data were processed

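Poly(A)+ RNA of 9 libraries was sequenced as single reads of 75 bases with a kit that keeps strand. According to the submitters' processing notes the authors used STAR, SAMtools, MultiQC and featureCounts with mm10. Versions, the annotation and the strand setting were not given in the sources used here. The authors deposited raw counts per gene, and 0 other value columns were left aside.

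From these counts, CPM were computed here with TMM factors, genes were filtered with filterByExpr (minimum count 10), and subsets were compared in 1 fit of the 9 libraries by edgeR's quasi-likelihood test (edgeR 4.0.16, limma 3.58.1, R 4.3.3) with Benjamini-Hochberg adjustment at 0.05. The same edgeR test was also run on simulated counts for pDC against cDC1, and the result of that run is not given here. The depth of 15806597 to 32453789 reads sets a floor of 3 counts, or 0.0908 to 0.203 CPM, and floors cover counting error only. Positions and exon lengths came from GENCODE mouse release 21 (GRCm38), in which 95.99% of listed genes were found. Cr2 and Ebf1 are listed under more than 1 identifier, and the row with more reads was used.

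Same-numbered libraries share a date in their labels, and after the subset means were removed their deviations correlated in all 9 pairs (mean r = 0.40, range 0.27 to 0.54). The main fit held the subset alone and did not use this pairing, because the study's methods name no block. A second fit with the replicate number as a block is given where it changes a call. Replicates of a subset differed by more than counting noise (chi-square per degree of freedom 10.7 to 68.5 over 9 pairs).

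The members, gene lists and tests were chosen with earlier results of these data known. Named genes were the 9 members, the defining markers, up to 4 genes per list and direction with the largest absolute log2 fold change among those called, and the 3 nearest profiles of each tested member, of which the nearest is printed. The B cell and plasma cell marker lists were not named by size of change, so some of their genes with larger changes are left out. Alternatives were other scalings, filters, tests, the block and leaving out libraries (DESeq2 1.42.0, Python 3.11.15). Ighd, Iglc1, Iglc3 and Paxx were not analysed here, and 1 listed gene is not reported here.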

Additional observations from a re-analysis of the deposited data

How the results depend on the processing

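Dntt, Ly6d, Ighm, Cd79b and Blnk were called as higher in pDC in both comparisons under every alternative that tested them, and Cd79b as higher in cDC2 than in cDC1 likewise. Cd79a, which passed the main filter through pDC alone, was called in 11 of 17 alternatives against cDC1 (log2 fold change 2.70 to 3.85). Against cDC2 it was called in 4 of 17 (1.92 to 3.08). With at least 10 counts required in every library, Dntt, Rag1 and Cd79a were no longer tested, and 4 of the 9 genes were called in pDC against cDC1. With genes of any count kept, 8 were called, Ptcra being added.

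With a minimum size of 1 on the log2 scale as well, the calls were 4063 of 6718 genes in pDC against cDC1, 3837 of 6328 in pDC against cDC2 and 1812 of 3370 in cDC2 against cDC1. Without the third replicate of every subset, 5285 genes were called in cDC2 against cDC1, and leaving out libraries singly or together gave 2483 to 5285. The cause was not tested. Fitted with the replicate number as a block, 8094, 7663 and 4916 genes were called in the 3 comparisons, and among the 9 genes the pairing changed only the call of Cd79a against cDC2.

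The reversals were all in cDC2 against cDC1, in differences that were not called. Without cDC2 replicate 1 the log2 fold change was -0.20 for Dntt, -1.89 for Rag1 and -0.57 for Ly6d, and without cDC1 replicate 2 it was -0.26 for Ly6d. limma-voom gave -0.019 for Rag1 and -0.0020 for Cd79a. Ighm turned to 0.051 with library size alone and to 0.0015 without cDC1 replicate 3. Over the fits that left out libraries, these differences ranged from -0.20 to 1.34 for Dntt, from -1.89 to 2.48 for Rag1, from -0.57 to 0.40 for Ly6d and from -0.13 to 0.0015 for Ighm. Scaling by library size alone shifted the median of all genes by 0.11 in cDC2 against cDC1. Counts of 0 to 9 for Pax5, Ebf1 and Rag2 in pDC limit what can be said of them.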

Other observations

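T cell receptor V segments, which none of the comparisons above use, also gave reads in pDC. Of 138 listed, 0 had over 3 counts in any cDC1 library, 1 to 6 in the cDC2 libraries and 6 or 7 in the pDC libraries, and their summed level was 0.328 to 0.474 CPM in cDC1, 0.446 to 3.29 CPM in cDC2 and 5.83 to 6.83 CPM in pDC. All 4 that passed the filter on low counts, each through pDC alone, were alpha chain V genes. Trav13n-4 had 69, 25 and 38 counts in pDC and 0 in the other 6 libraries, at least 12.8-fold higher than in cDC1. Trav14n-3 had 19, 27 and 19 counts, Trav14-1 had 33, 19 and 14, and Trav13-1 had 27, 14 and 9, each with at most 1 count in any conventional library. The T cell receptor constant genes stood near the floor in pDC, with 13, 13 and 2 counts for Trac and 8, 12 and 0 for Trbc1. Trav genes of the 13 and 14 families have near-identical copies, and reads could be split among them.

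Among other T cell markers, Cd28, a co-stimulatory receptor, averaged 59.0 CPM in pDC, 0.635 CPM in cDC1 and 1.06 CPM in cDC2, and Lat, an adaptor of T cell receptor signalling, averaged 6.23, 0.495 and 1.54 CPM. Of the 12 T cell markers tested, 3 were higher and 9 did not pass the test in pDC against cDC1, where 24.3% of all genes tested were higher. Against cDC2, 2 were higher, 2 (Cd247 and Cd5) were lower and 8 did not pass, with a median log2 fold change of -1.05. In that comparison 22.5% of all genes tested were higher and 23.3% lower.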
